A study of Mus musculus with 12 samples.

Results

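Described here are 8 genes of the aryl hydrocarbon receptor (AHR) pathway in mouse endothelial cells. Cyp1a1, Cyp1b1, Nqo1 and Ugt1a6a encode enzymes that oxidise, reduce or conjugate small molecules. Ahr and Arnt encode the receptor and its DNA-binding partner, and Ahrr and Tiparp encode repressors that the receptor itself switches on. The genes were chosen by symbol; all 8 were found among the 27825 genes of the deposited table, and all 8 were among the 22238 genes with a mean of at least 10 normalized counts that entered the tests. The choice began with the loss of Cyp1a1 on a high fat diet in these same libraries. Its diet changes are therefore given as a description, with no test, and the other 7 genes are textbook members of its pathway.

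All groups came from male ROSA26-eYFP+/+ Cdh5-CreERT2+ mice. In these animals tamoxifen activates a Cre recombinase driven by the endothelial Cdh5 promoter, which turns on a yellow fluorescent protein. Tamoxifen diet was fed for 2 weeks to every mouse at 6 weeks of age. Normal chow (5.8% fat) or a high fat diet (60% fat) followed from week 8 of life and lasted 12 to 13 weeks. Mesentery or epididymal fat of 6 mice was pooled per sample and digested with actinomycin D, an inhibitor of transcription, and living fluorescent cells were sorted for RNA-seq. The 4 groups (each tissue on each diet) hold 3 libraries each, A, B and C, and values below follow that order. The sample descriptions carry pool numbers that both tissues share, 50, 51 and 87 for chow A, B and C, and 88, 52 and 53 for high fat A, B and C. The protocol mentions a repeat that gave 2 independent replicates, so independence of all 3 libraries within a group is not certain, n = 3 counts libraries, and their spread may be partly technical. The diets were different products of different makers, so fat content and other ingredients cannot be told apart.

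Without ligand, AHR waits in the cytosol in a complex with HSP90 and p23. Ligands such as dioxins, plant indoles and tryptophan metabolites send it to the nucleus, where it pairs with ARNT and binds DNA at the core GCGTG. Cyp1a1 is its best known target, and endothelium is a known site of CYP1A1 induction. AHRR competes for ARNT and TIPARP modifies the receptor with ADP-ribose, so both limit the response.

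The stretch of 250 bases before the start site was taken from RefSeq (build GRCm38.p6) to show which members carry the receptor's core near their start. The search covered GCGTG on both strands (printed in capitals, as CACGC where it lies on the other strand), the TATA box TATAAA and the antioxidant response element core TGACNNNGC, and no 2 matches overlapped. Entries existed for 7 of the 8 members, all but Ahr, and 5 of the 7 held GCGTG: Cyp1a1, Cyp1b1, Ahrr, Arnt and Tiparp. Of all 32851 promoters of this length, 28.2% held GCGTG, 12.4% TATAAA and 10.2% TGACNNNGC. Shown are Cyp1a1, 3 other classic targets with the core (Cyp1b1, Ahrr, Tiparp), and Nqo1, a target without it in this window. A match is a description of letters, not a shown binding site.
Cyp1a1 (chr9:57697363-57697612, plus strand): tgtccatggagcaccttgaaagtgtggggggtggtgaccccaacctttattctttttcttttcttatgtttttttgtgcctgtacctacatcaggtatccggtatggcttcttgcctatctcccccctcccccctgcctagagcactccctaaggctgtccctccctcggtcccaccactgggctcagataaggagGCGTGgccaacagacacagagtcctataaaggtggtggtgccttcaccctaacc
Cyp1b1 (chr17:79715062-79715311, minus strand): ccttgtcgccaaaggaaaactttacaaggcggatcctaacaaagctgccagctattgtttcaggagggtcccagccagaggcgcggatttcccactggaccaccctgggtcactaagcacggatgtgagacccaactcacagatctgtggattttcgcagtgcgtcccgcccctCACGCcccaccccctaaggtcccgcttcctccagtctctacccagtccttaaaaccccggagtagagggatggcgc
Ahrr (chr13:74292332-74292581, minus strand): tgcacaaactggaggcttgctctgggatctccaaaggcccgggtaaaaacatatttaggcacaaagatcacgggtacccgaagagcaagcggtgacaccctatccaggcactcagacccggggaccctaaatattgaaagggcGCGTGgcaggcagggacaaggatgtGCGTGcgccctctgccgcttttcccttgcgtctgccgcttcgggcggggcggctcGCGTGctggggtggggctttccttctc
Tiparp (chr3:65528197-65528446, plus strand): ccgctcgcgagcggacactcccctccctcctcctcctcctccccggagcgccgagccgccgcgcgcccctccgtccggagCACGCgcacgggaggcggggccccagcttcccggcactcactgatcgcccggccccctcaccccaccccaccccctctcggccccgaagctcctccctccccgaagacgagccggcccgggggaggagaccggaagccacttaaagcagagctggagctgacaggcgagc
Nqo1 (chr8:107403206-107403455, minus strand): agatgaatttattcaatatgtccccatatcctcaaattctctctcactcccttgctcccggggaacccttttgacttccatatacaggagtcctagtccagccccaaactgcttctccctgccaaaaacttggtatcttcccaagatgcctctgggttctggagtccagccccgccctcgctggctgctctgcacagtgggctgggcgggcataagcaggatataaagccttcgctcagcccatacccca
The Cyp1a1 core lies at -54 to -50 from the start, with TATAAA at -30 to -25. Cyp1b1 has its core at -76 to -72 on the opposite strand, and Tiparp at -170 to -166, also on the opposite strand. Ahrr holds 3 cores, at -107 to -103, -82 to -78 and -27 to -23. Nqo1 has TATAAA at -29 to -24. Arnt, not printed, has the GCGTG core at -29 to -25 and is the member with the antioxidant core, with 2 matches.

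Recovered read totals ran from 8348897 to 25397963 per library, and 3 reads corresponded to 2.12 to 4.22 normalized counts, a floor that covers counting error only. Endothelial identity was checked with 12 markers. On chow, Cdh5 stood at 3842 ± 1097 normalized counts in mesentery against 3804 ± 640 in epididymal fat (SD, n = 3), and on high fat diet at 2835 ± 138 against 3120 ± 1320. Summed over the 12 markers, the mean level was 173973 and 136216 in mesentery (chow, high fat) and 96293 and 68812 in epididymal fat, with no marker at 0 in any group. Genes of other cells were also present: 8 pancreatic acinar markers summed to a mean of 101914 and 73884 in mesentery (chow, high fat), led by Clps, against 216 and 444 in epididymal fat, led by Cela1, where Amy2b on chow and Prss2 on high fat diet were at 0 in all libraries. Macrophage markers (10 genes) summed to 6516 and 30650 in mesentery, led by Cd74, and 71495 and 355247 in epididymal fat, led by Cd74 on chow and Lyz2 on high fat diet. Reads on 645 olfactory and vomeronasal receptor genes had a higher median in pools 87 and 88 than in pools 50 to 53, 1963 against 214 per 1000000 reads, but the ranges of 579 to 3006 and 98.6 to 1865 overlapped.

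Cyp1a1 (ENSMUSG00000032315), a cytochrome P450 that oxidises polycyclic aromatic compounds, was abundant on chow in both tissues and close to the detection floor on high fat diet. In mesentery its normalized counts were 1685, 1852 and 3980 on chow and 12.2, 2.77 and 10.9 on high fat diet. In epididymal fat they were 382, 219 and 833 on chow and 0, 3.30 and 9.91 on high fat diet. Every chow library lay far above every high fat library of its tissue: the lowest chow value was 139 times the highest high fat value in mesentery and 22.1 times in epididymal fat. The 3 high fat libraries held 26 reads of the gene in mesentery and 18 in epididymal fat, against 6374 and 1556 on chow.

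Mean Cyp1a1 levels were 2506 ± 1280 and 8.60 ± 5.09 normalized counts in mesentery (SD, n = 3), a 291-fold ratio, and 478 ± 318 and 4.40 ± 5.05 in epididymal fat, a 109-fold ratio. With high fat libraries under 3 reads raised to that floor, the ratios were 277 and 86.5. After adding 1 and taking log2, a scale that compresses changes of low genes, Cyp1a1 fell by 8.11 in mesentery and by 6.84 in epididymal fat. Both ranges of pool numbers showed the fall: the log2 changes in mesentery and epididymal fat were -8.05 and -5.40 in pools 50 to 53, and -8.24 and -9.70 between pools 87 and 88, with 1 library each. These are the values that led to the choice of the gene set. Per summed endothelial marker level, the chow mean was still 247 times the high fat mean in mesentery and 82.7 times in epididymal fat. In sorted bulk RNA, fewer expressing cells and less RNA per cell cannot be told apart.

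The order of the Cyp1a1 levels was mesentery on chow, epididymal fat on chow, then both high fat groups. On chow the tissues did not overlap, with the lowest mesentery library at 1685 and the highest epididymal library at 833, and the mesentery mean was 5.24 times the epididymal mean. The log2 change from mesentery to epididymal fat was -2.49 (SE 0.81) and missed the threshold (limma adjusted p 0.0608). It passed in 8 of 17 alternative fits, edgeR (adjusted p 0.0241) and DESeq2 (0.00148) among them, over a range of 0.00148 to 0.238, and of the fits without 1 library only the one without epididymal chow C passed (0.0416). Per endothelial marker level the chow ratio between tissues was 3.12. It was 2.67 with Cldn5, 1 of the 12 markers, left out, a choice made after the values were seen. The pancreatic and macrophage marker sums given above also separated the tissues, and their part in the Cyp1a1 difference was not tested. The high fat groups overlapped (log2 change -1.22, limma adjusted p 0.462), and at 26 and 18 reads a difference between them was not detectable at this depth.

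**Figure D1:**
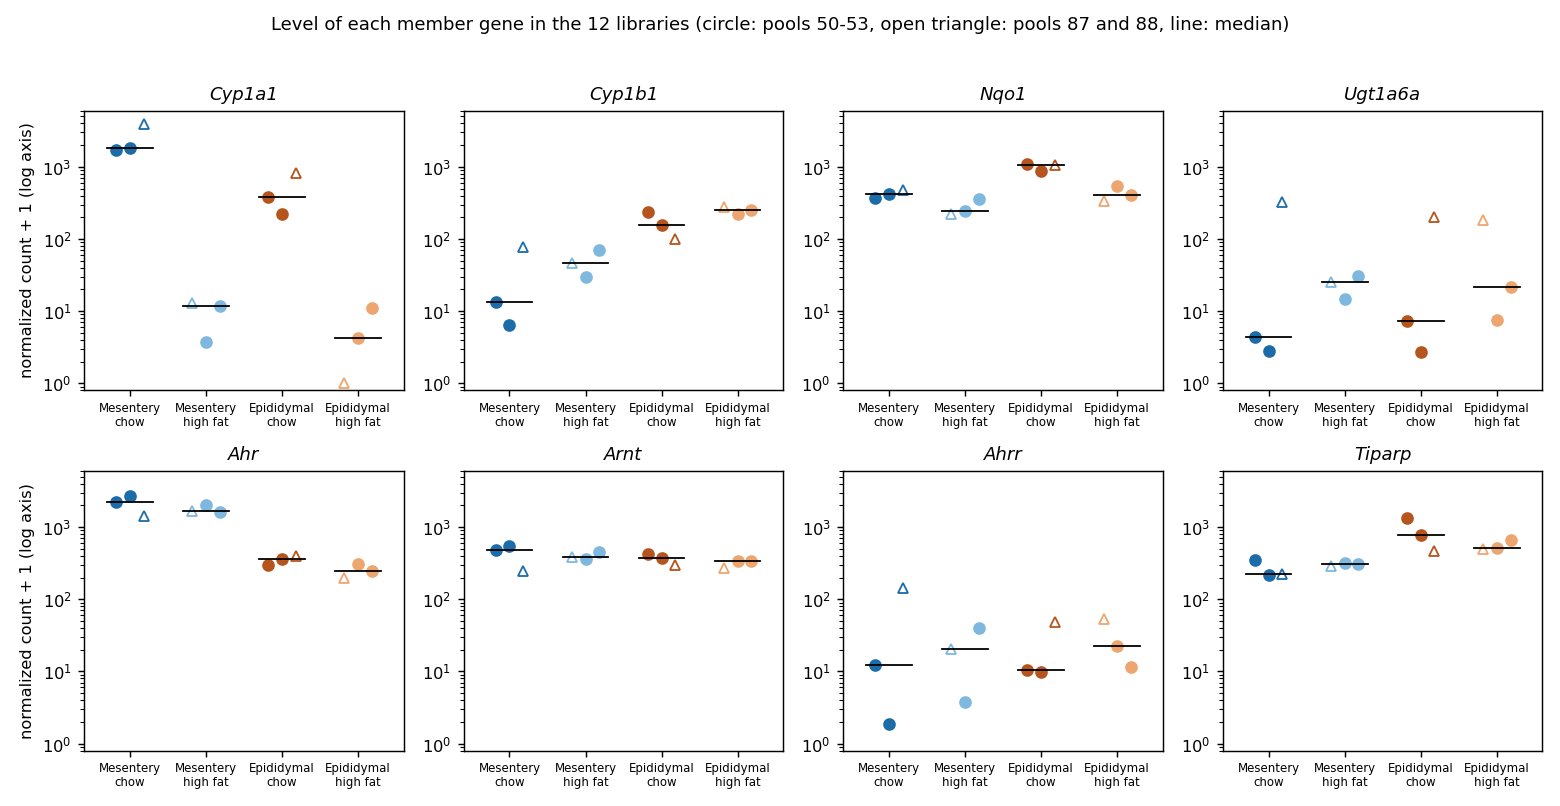
Normalized count + 1 (log axis) of the 8 genes in each of the 12 libraries, by tissue and diet; circles are pools 50 to 53, open triangles pools 87 and 88, and lines are medians. Cyp1a1 drops from 219 or more on chow to 12.2 or less on high fat diet, Ahr separates the tissues, and Ahrr and Ugt1a6a spread widely within groups.

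Cyp1b1 (ENSMUSG00000024087), the related P450 that also metabolises oestrogens, did not follow Cyp1a1 across the diets and was higher in epididymal fat. Mesentery libraries held 12.5, 5.38 and 77.4 normalized counts on chow and 45.8, 29.1 and 69.2 on high fat diet. Epididymal libraries held 239, 156 and 100 on chow and 277, 220 and 249 on high fat diet. All epididymal values exceeded all mesentery values on either diet, while the diets overlapped within each tissue. On chow Cyp1b1 rose by 3.05 on the log2 scale from mesentery to epididymal fat (SE 0.725, limma adjusted p 0.0144), a 5.20-fold ratio of means.

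The tissue change of Cyp1b1 on chow was 4.39 in pools 50 and 51 and 0.37 in pool 87. It missed the threshold without mesentery chow A (limma adjusted p 0.0606) or B (0.0519), without epididymal chow A (0.0765) or B (0.0549), with the chow libraries fitted alone (0.0730) and in edgeR (0.0612), within a range of 0.000189 to 0.0765. With high fat feeding the tissue change was 2.43 (SE 0.725, limma adjusted p 0.0577), which passed in 6 of 17 alternatives over a range of 0.00500 to 0.204. The diet changes were 1.29 in mesentery (limma adjusted p 0.881) and 0.67 in epididymal fat (1.00). Fibroblast markers (10 genes, led by Dcn) moved with tissue too, summing to 7240 to 11092 in mesentery and 19986 to 59501 in epididymal fat on chow, and their part in the Cyp1b1 difference was not tested.

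Nqo1 (ENSMUSG00000003849), a quinone reductase induced by AHR and by the antioxidant factor NRF2, was the member other than Cyp1a1 that fell on high fat diet, and it did so in epididymal fat. There its levels were 1106, 871 and 1054 on chow and 335, 542 and 411 on high fat diet, and the groups did not overlap. Nqo1 fell by 1.25 on the log2 scale (SE 0.234, limma adjusted p 0.0319), with means of 1010 ± 124 and 429 ± 105 (SD, n = 3). In mesentery the levels were 366, 419 and 473 on chow and 220, 247 and 356 on high fat diet, which also did not overlap. That change of -0.63 did not pass (SE 0.234, limma adjusted p 0.686).

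The Nqo1 change in epididymal fat did not pass in 7 of 17 alternatives. It missed the threshold without chow A (limma adjusted p 0.183), chow C (0.113), high fat A (0.142) or high fat C (0.179), in pools 50 to 53 alone (0.187), with libraries scaled to one total (0.0525) and in edgeR (0.114), and the range was 0.000126 to 0.187. Adipocyte markers (8 genes, led by Cfd on chow and Cidec on high fat diet) were lower alongside, summing to between 64264 and 87225 in the epididymal chow libraries and between 4450 and 15007 in the epididymal high fat libraries, with none at 0 in either group. Mean sums of other markers moved there too, from chow to high fat diet. Macrophage markers rose from 71495 to 355247 and fibroblast markers from 40618 to 63104, with overlap between the fibroblast sums. Smooth muscle and pericyte markers fell from 22757 to 10341. The part of these cells in the Nqo1 change was not tested. Per endothelial marker level, the Nqo1 chow mean was 1.67 times the high fat mean there and 1.24 times in mesentery. Averaged over both tissues of a pool, Nqo1 changed by -0.94 (SE 0.173, limma adjusted p 0.0926), which passed in DESeq2 (adjusted p 0.00118) but not in edgeR (0.0929).

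Between tissues Nqo1 was higher in epididymal fat on chow, by 1.27 on the log2 scale (SE 0.23, limma adjusted p 0.00314), and this passed in all 17 alternatives. On the high fat diet the tissues overlapped and the change was 0.65 (limma adjusted p 0.115). It passed without mesentery high fat C (0.0480), and the range was 0.0480 to 0.411. Whether the tissue difference itself changed with diet did not pass (interaction -0.62, SE 0.33, limma adjusted p 1.00). Marker sums of other cells also differed between tissues on chow. In mesentery and epididymal fat, adipocyte markers summed to 5845 and 75641 (led by Cfd) and red blood cell markers to 385 and 40056 (led by Hba-a1). Smooth muscle and pericyte markers summed to 1626 and 22757 (led by Rgs5), while the pancreatic sum given above went the other way. Their part in the Nqo1 tissue difference was not tested.

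Ugt1a6a (ENSMUSG00000054545), a glucuronosyltransferase that makes phenols soluble, and Ahrr (ENSMUSG00000021575), the receptor's repressor, were low and spread more within groups than between them. Ugt1a6a read 3.42, 1.79 and 321 normalized counts in mesentery on chow and 24.3, 13.9 and 29.6 on high fat diet. In epididymal fat it read 6.27, 1.74 and 198 on chow and 181, 6.61 and 20.5 on high fat diet. A single library set the mean of 3 of the 4 groups: chow C in both tissues and high fat A in epididymal fat. Those libraries are from pools 87 and 88, whose remaining library, mesentery high fat A, read 24.3. UGT1A genes share their downstream exons, and how the counting divided such reads was not given, so the values of single UGT1A genes are uncertain.

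Ahrr read 11.4, 0.896 and 141 in mesentery on chow, 19.6, 2.77 and 39.5 on high fat diet, 9.40, 8.69 and 48.0 in epididymal fat on chow, and 52.8, 21.5 and 10.6 on high fat diet. All comparisons of groups overlapped for both genes, and no contrast passed for either. Of the 3 libraries with the highest Ugt1a6a, all had high olfactory and vomeronasal receptor reads: 3006 per 1000000 reads in mesentery chow C, 1893 in epididymal chow C and 2033 in epididymal high fat A. Ahrr was highest in the same libraries and in mesentery high fat C (1865 per 1000000). Ugt1a6a was at only 29.6 in mesentery high fat C. The part of these reads in the 2 genes' levels was not tested.

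**Figure D2:**
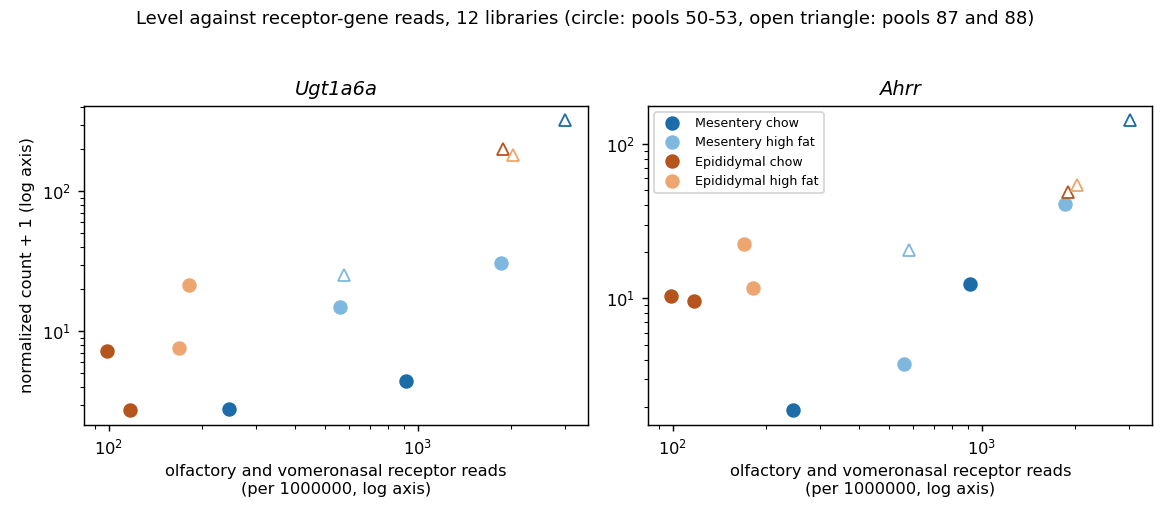
Ugt1a6a and Ahrr (normalized count + 1, log axis) against reads per 1000000 on 645 olfactory and vomeronasal receptor genes (log axis), 12 libraries; circles are pools 50 to 53 and open triangles pools 87 and 88. The 3 highest Ugt1a6a libraries, at 181 to 321, are those with 1893 or more receptor reads per 1000000. Mesentery high fat C, at 1865, has Ugt1a6a at 29.6.

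Ahr (ENSMUSG00000019256), the ligand-binding receptor, differed between tissues and did not pass the test for diet. Mesentery libraries held 2216, 2653 and 1405 normalized counts on chow and 1662, 2017 and 1641 on high fat diet. Epididymal libraries held 298, 366 and 398 on chow and 196, 304 and 244 on high fat diet. Every mesentery library exceeded every epididymal one, while the diets overlapped within each tissue. From mesentery to epididymal fat Ahr fell by 2.52 on the log2 scale on chow (SE 0.243, limma adjusted p 2.67e-05) and by 2.85 on high fat diet (adjusted p 1.21e-05).

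The mesentery mean of Ahr was 5.91 times the epididymal mean on chow and 7.15 times on high fat diet, and both differences passed in all 17 alternatives. Per endothelial marker level these ratios were 3.21 and 3.53. Endothelial markers were not uniform between tissues: on chow limma called 7 of the 12 lower in epididymal fat and 1 higher, and on high fat diet 8 lower and 1 higher, while Cdh5 did not pass. Pecam1, an adhesion molecule, fell by 0.90 on the log2 scale on chow (limma adjusted p 0.0133), which did not pass without mesentery chow A (0.0530), without epididymal chow A (0.0616) or in edgeR (0.0743). Cldn5, a tight junction protein, was the marker that went the other way, at 555, 722 and 1383 normalized counts in mesentery and 15133, 20509 and 12312 in epididymal fat on chow (log2 change 4.25, limma adjusted p 8.46e-05). With Cldn5 left out of the marker sum, the Ahr ratios were 2.699 and 2.731, a choice made after the values were seen. The pancreatic and macrophage marker sums given above also separated the tissues, and their part in the Ahr difference was not tested. By diet Ahr changed by -0.20 in mesentery (95% interval -0.72 to 0.33, limma adjusted p 0.963) and by -0.53 in epididymal fat (-1.05 to -0.0017, adjusted p 0.715). The Ahr interaction was -0.33 (SE 0.34, limma adjusted p 1.00).

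Arnt (ENSMUSG00000015522), the partner that AHR shares with hypoxia factors, showed no called change. Its levels were 486, 540 and 242 in mesentery on chow, 378, 365 and 456 there on high fat diet, 427, 375 and 297 in epididymal fat on chow, and 271, 333 and 336 there on high fat diet. On the high fat diet the epididymal libraries all lay under the mesentery libraries (log2 change -0.35, limma adjusted p 0.582), and the other pairs of groups overlapped. The 95% interval of the diet change was -0.61 to 0.60 in mesentery and -0.82 to 0.39 in epididymal fat.

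Tiparp (ENSMUSG00000034640), the ADP-ribosyltransferase that limits AHR, was higher in epididymal fat on chow. Mesentery libraries held 344, 217 and 220 normalized counts on chow and 284, 312 and 304 on high fat diet. Epididymal libraries held 1342, 787 and 472 on chow and 501, 516 and 667 on high fat diet. The tissues did not overlap on either diet, and the diets overlapped within each tissue. Tiparp rose by 1.64 from mesentery to epididymal fat on chow (SE 0.317, limma adjusted p 0.00430), a 3.33-fold ratio of means, and did so in all 17 alternatives. On the high fat diet the change was 0.89 (limma adjusted p 0.111), a 1.87-fold ratio. It changed by 0.24 with diet in mesentery (95% interval -0.45 to 0.92) and by -0.51 in epididymal fat (-1.19 to 0.18). The marker sums of other cells given above also separated the tissues, and their part in the Tiparp difference was not tested.

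**Figure D3:**
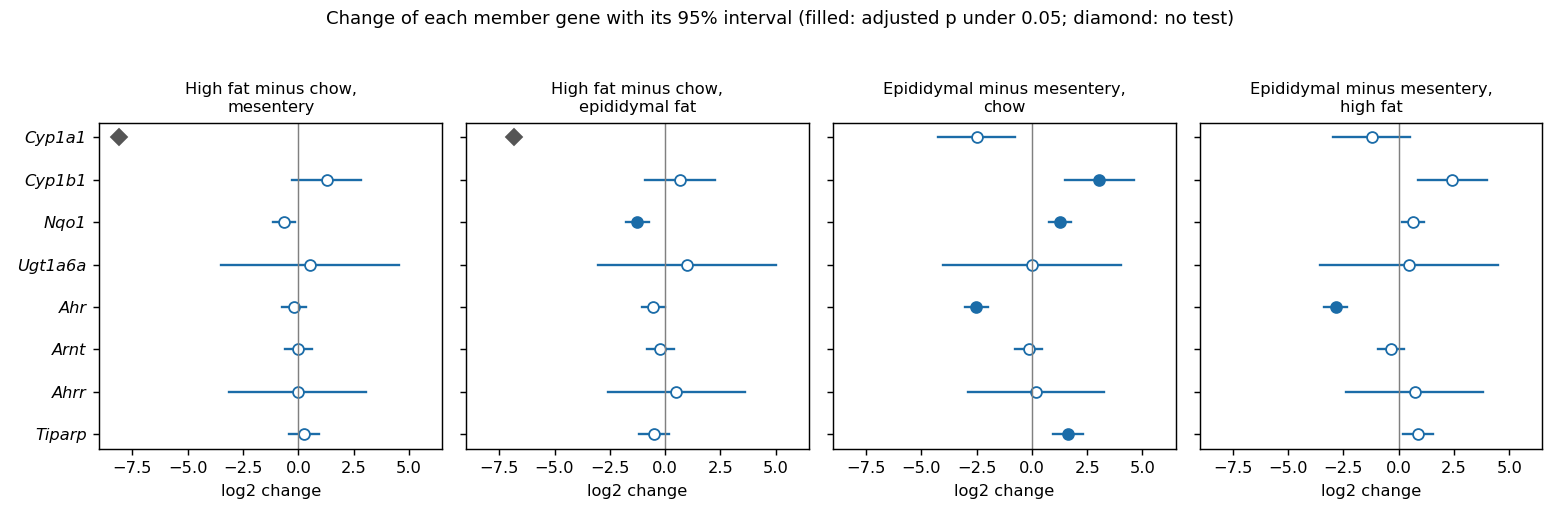
Change of each gene on the log2(normalized count + 1) scale in 4 comparisons, with 95% intervals from limma; filled circles have an adjusted p under 0.05, and grey diamonds are the untested diet changes of Cyp1a1 (-8.11 and -6.84). Ahr lies left of 0 in both tissue comparisons, and Cyp1b1, Nqo1 and Tiparp lie right of 0 on chow.

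Counted together, 0 of the 7 members other than Cyp1a1 passed for diet in mesentery by limma (1 at an unadjusted p under 0.05, 0 by edgeR and 0 by DESeq2), where limma called 0.0135% of all genes tested (6.15% at an unadjusted p under 0.05), edgeR 0.0045% and DESeq2 0.693%. In epididymal fat 1 of 7 passed, Nqo1 (2 at an unadjusted p under 0.05, 0 by edgeR and 1 by DESeq2), where limma called 0.549% of all genes (6.94% at an unadjusted p under 0.05), edgeR 0.13% and DESeq2 2.46%. Groups did not overlap for 1 of 7 in each tissue, against 9.61% of all genes in mesentery and 13.5% in epididymal fat. Between tissues on chow, 4 of 8 members passed, with Ahr lower and Cyp1b1, Nqo1 and Tiparp higher in epididymal fat, where 12.8% of all genes were called, 7.32% higher and 5.47% lower. With high fat feeding 1 of 8 passed, Ahr, where 8.34% were called. Members without overlap between tissues numbered 5 of 8 on chow and 4 of 8 on high fat diet, against 28.7% and 26.4% of all genes.

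The median log2 tissue change of the 8 members was 0.09 on chow and 0.55 on high fat diet, beside -0.08 and 0.06 over all genes tested. For diet the median of the 7 members other than Cyp1a1 was -0.0059 in mesentery and -0.22 in epididymal fat, beside -0.0023 and 0.10 over all genes. Of the members other than Cyp1a1, none passed for the difference of diet effects between tissues (limma: 0 of 7, and 0 at an unadjusted p under 0.05; edgeR 0 and DESeq2 0), where limma called 0.0045% of genes (4.71% at an unadjusted p under 0.05), edgeR 0.0045% and DESeq2 0.598%. Averaged over the tissues of a pool, limma called 0 of 7 members for diet (2 at an unadjusted p under 0.05, Nqo1 and Cyp1b1; edgeR 0, DESeq2 1), where limma called 0.0719% of genes (6.64% at an unadjusted p under 0.05), edgeR 0.333% and DESeq2 2.57%. The diet comparisons and the tissue comparisons share their libraries and are not separate evidence.

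Other genes of the pathway were read from lists, some of which share genes with the members, so repeated calls are not separate evidence. Of all genes, limma called 12.8% between tissues on chow and 8.34% on high fat diet. For diet it called 0.0135% in mesentery and 0.549% in epididymal fat, and 6.15% and 6.94% had an unadjusted p under 0.05. Of the 11 genes of the receptor complex and its regulators, which include the chaperones Hsp90aa1, Hsp90ab1 and Ptges3, Ahr and Tiparp passed between tissues on chow and Ahr on high fat diet, and none passed for diet in either tissue (limma; at an unadjusted p under 0.05, 0 in mesentery and 1, Ahr, in epididymal fat; edgeR 0 and DESeq2 0 in both). The widest change with diet in mesentery in this list was that of Arnt2, a second ARNT, at -0.92 (limma adjusted p 0.965), a gene with 39.4 normalized counts or fewer there.

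The battery of classic AHR targets added Ugt1a6b, Aldh3a1, Gsta1, Gsta2 and Nfe2l2, of which Aldh3a1 and Gsta1 were too low to test, and Cyp1a2 was not analysed here. Of the 9 tested, 4 were called higher in epididymal fat on chow, against 7.32% of all genes. They were the 3 members named above and Ugt1a6b, so only Ugt1a6b was new to that count. No mesentery library held more than 2 reads of Ugt1a6b, so its epididymal counts alone brought it past the minimum mean for testing. A gene admitted in this way could be called only as higher in epididymal fat, so its call is not evidence on direction. The uncertainty given above for the values of single UGT1A genes applies to it too. Ugt1a6b, a close relative of Ugt1a6a, stood at 33.7, 28.7 and 23.5 normalized counts in epididymal fat on chow and at 2.28, 0 and 0 in mesentery (limma adjusted p 0.0243), and on high fat diet it was listed at 0 in all 3 mesentery libraries and at 7.87, 19.8 and 17.0 in epididymal fat (adjusted p 0.0512). Its call was lost without mesentery chow B (0.0670), without epididymal chow A (0.0983) or B (0.0933), with the chow libraries fitted alone (0.0664) and in edgeR (0.0725). Among 7 tested genes that dioxin is known to induce in other settings, Htatip2 alone passed, higher in epididymal fat by 0.72 on chow (limma adjusted p 0.0250) and by 0.71 on high fat diet (0.0354), and it passed in 11 and 8 of 17 alternatives; without mesentery chow A it was at 0.118 and without epididymal high fat C at 0.160. With Cyp1a1 set aside, Nqo1 was the battery gene that passed for diet by limma, and none of the 7 did in either tissue; at an unadjusted p under 0.05, Xdh in epididymal fat was the 1 gene of the 7.

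NRF2 targets, which share Nqo1 with the AHR list, were examined because Nqo1 answers to both factors. Of 13 tested, 4 rose from mesentery to epididymal fat on chow: Nqo1, Hmox1, the haem-degrading enzyme, by 1.91 (SE 0.208, limma adjusted p 6.9e-05), Cat, the catalase, by 1.49 (0.000395), and Gsta4, a glutathione transferase, by 1.48 (0.0151). On the high fat diet Hmox1 rose by 1.92 (limma adjusted p 9.87e-05) and Prdx1, a peroxidase, by 1.18 (0.00867). The Hmox1 and Cat changes passed in all 17 alternatives. None of these fits adjusts for the content of other cells, whose part in these tissue differences was not tested. Gsta4 was lost without mesentery chow A (0.0599) or B (0.0580) or epididymal chow A (0.0860) or B (0.0559), and Prdx1 without mesentery high fat B (0.0536) or epididymal high fat C (0.0532) and with the high fat libraries fitted alone (0.0588). For diet, limma called Nqo1 alone, in epididymal fat, and edgeR called 0 of 13 in either tissue. DESeq2 called 4 in epididymal fat and 2 in mesentery, against 2.46% and 0.693% of all genes. At an unadjusted p under 0.05, limma had 6 of 13 in epididymal fat, against 6.94% of all genes, and they moved both ways. Prdx1, Ugdh and Hmox1 were higher on high fat diet, and Nqo1, Gsta4 and Me1 were lower. In mesentery limma had 3 of 13, against 6.15%: Cat and Hmox1 were higher and Nqo1 was lower. Hmox1 did not pass for diet, with 697 ± 73.1 normalized counts on chow and 1309 ± 281 on high fat diet in epididymal fat (SD, n = 3; log2 change 0.89, limma adjusted p 0.0976).

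Enzymes of tryptophan breakdown, which makes some AHR ligands (10 tested, Ido1 and Tdo2 among them), gave 0 calls by limma, edgeR and DESeq2 in any contrast, and 1 had an unadjusted p under 0.05 for diet in mesentery and over pool means, Haao. The 3 tested partners that compete for ARNT, Hif1a, Epas1 and Npas3, gave 0 calls by limma and edgeR. DESeq2 called Epas1 between tissues on each diet, where it called 3927 of 22238 genes on chow and 2931 on high fat diet. Epas1, a hypoxia factor of endothelium, had a chow mean of 8830 ± 3742 normalized counts in mesentery against 4189 ± 321 in epididymal fat (SD, n = 3; log2 change -0.98, limma adjusted p 0.0685).

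Patterns like that of Cyp1a1 were ranked by Pearson's r of log2 values over the 12 libraries among 10198 genes with a symbol and a mean of at least 100. These points share libraries and fall into 2 diets and 2 tissues, so r is a description only. Edc3, which helps remove the mRNA cap, came first (r = 0.909), then Ppme1 (0.838), Dtx3 (0.837), Cul5 (0.823) and Zfp275 (0.821). Of the members, r was 0.476 for Nqo1, 0.343 for Ahr, 0.205 for Arnt, -0.02 for Ahrr, -0.10 for Ugt1a6a, -0.15 for Tiparp and -0.44 for Cyp1b1.

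Edc3 (ENSMUSG00000038957) is also the next protein-coding gene after Cyp1a1 in the RefSeq gene order of GRCm38.p6. It read 386, 418 and 482 normalized counts in mesentery on chow and 237, 315 and 288 on high fat diet. In epididymal fat it read 364, 365 and 455 on chow and 232, 289 and 269 on high fat diet. The diets did not overlap in either tissue, yet neither change passed (log2 change -0.62, limma adjusted p 0.633, and -0.58, adjusted p 0.353). Edc3 was picked by its likeness to Cyp1a1, which separates the diets, so its own separation follows from that choice. Of all genes, 9.61% in mesentery and 13.5% in epididymal fat did not overlap between the diets. Csk and Clk3, the nearest other neighbours in the table, overlapped between the diets in both tissues. Further out, Arid3b overlapped in both tissues and Ubl7 in mesentery. Ubl7 did not overlap in epididymal fat, at 534 to 554 on chow and 442 to 507 on high fat diet.

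**Figure D4:**
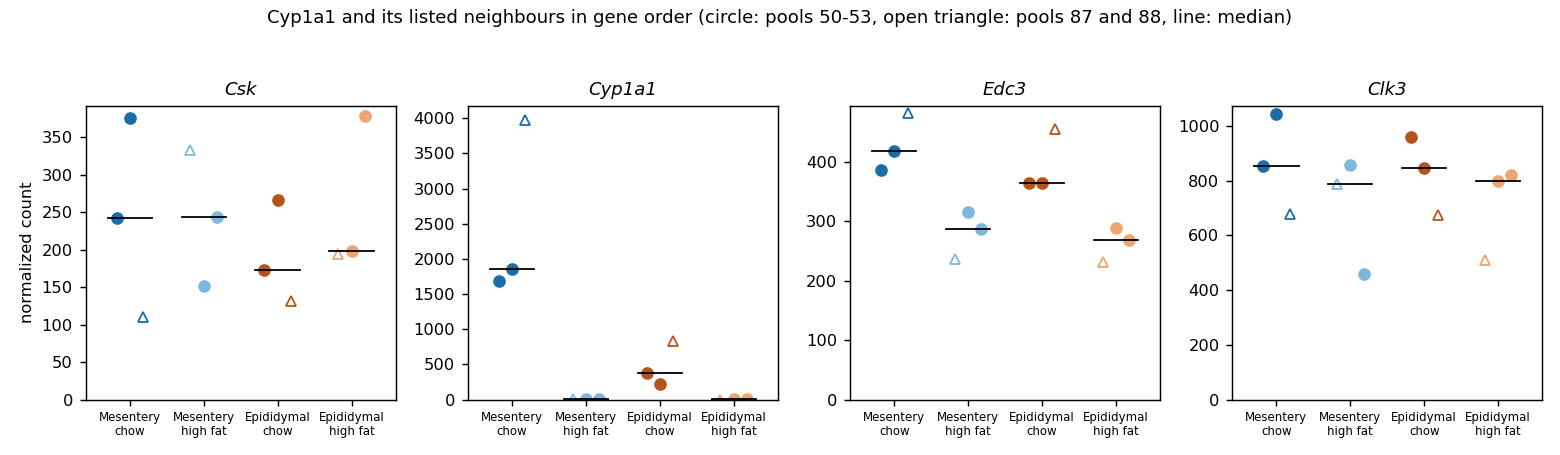
Normalized counts (linear axes from 0) of Cyp1a1 and 3 neighbours in gene order in each of the 12 libraries; circles are pools 50 to 53, open triangles pools 87 and 88, and lines are medians. Edc3, the gene ranked most like Cyp1a1, lies at 364 or more on chow and at 315 or less on high fat diet. Csk and Clk3 overlap.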

How the data were processed

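RNA-seq of sorted endothelial cells was deposited by the authors as normalized counts per gene, a signal on a linear scale, in 1 table of 12 libraries. Per the submitters' processing notes the tools were STAR 2.7.9a, featureCounts (Subread) and DESeq2 1.34.0 with genome build mm39. Annotation and strand use are not given in the sources used here. Each library's values were whole multiples of 1 step (100% within 0.01 of a read), so reads were recovered from them; per the file headers, columns were matched to samples by their names, and none was left unused. The lowest gene total was 51 reads.

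The test was limma 3.58.1 (R 4.3.3; lmFit, eBayes with trend) on log2(normalized count + 1) for 22238 genes with a mean of at least 10, with 1 mean per group over all 12 libraries, Benjamini-Hochberg adjustment over all genes and a threshold of 0.05. It was checked on simulated counts in which all genes had the same dispersion, without pool or cell content effects. That check covers the code and not the spread of these libraries. A further contrast compared diets over the means of both tissues with the same pool number. It treats them as 1 unit, although shared mice are not stated. "Per endothelial marker level" divides by the sum of 12 marker genes. Alternatives were other pseudocounts, filters and scaling, a replicate block, pool number range, fewer libraries, and edgeR 4.0.16 and DESeq2 1.42.0 on recovered reads. Members and lists were chosen with earlier results of these data known. Named are all members; from each pathway list up to 3 called genes per direction and contrast, or the widest change; the 5 genes most like Cyp1a1; Cdh5, Pecam1 and each marker list's highest gene. Haao, Xdh, Ugdh, Me1, Epas1, Cldn5 and the neighbours of Cyp1a1 were singled out after their values were seen. Gene names are those of the table, and promoters were matched by symbol.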

Additional observations from a re-analysis of the deposited data

How the results depend on the processing

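The calls for Ahr, Tiparp and Nqo1 between tissues on chow and for Ahr on high fat diet held in all 17 alternatives run for each. No alternative adjusts for other cells' RNA. For diet in epididymal fat, where 1 member (Nqo1) passed, 0 passed with libraries scaled to one total, with pools 50 to 53 alone and in edgeR, and 0 to 1 without 1 library. Of all 22238 genes, 122 were called there in the main fit. The calls were 105 with one total, 31 in pools 50 to 53, 29 in edgeR and 23 to 168 without 1 library. Between tissues on high fat diet, where 1 passed, 2 passed with a pseudocount of 5, a minimum mean of 50, the replicate block, the pool number range as a covariate, pools 50 to 53 alone or DESeq2, 3 with those groups fitted alone, and 1 to 2 without 1 library (2 without mesentery high fat C). Calls over all genes moved too, from 1854 of 22238 in the main fit. They were 1975 with a pseudocount of 5, 2161 of 13076 at a minimum mean of 50, and 1890 with the replicate block. With the covariate they were 2437, in pools 50 to 53 they were 2514, and in DESeq2 2931. Those groups fitted alone gave 1657, and fits without 1 library 728 to 1741. For diet over pool means, where 0 passed, 1 passed with the number range as a covariate and in DESeq2. Of all 22238 genes, 16 were called there in the main fit, 124 with the covariate and 571 in DESeq2. A fit of the compared groups alone has no separate meaning there or for the difference of diet effects and was not run. The Ahr ratio between tissues on high fat diet per endothelial marker level went from 3.53 to 2.73 without Cldn5, a choice made after its values were seen. Direction reversed in pools 50 to 53 alone for 3 changes that did not pass: Cyp1a1 between tissues on high fat diet (0.034), and the differences of diet effects of Ahr (0.14) and Arnt (0.0705). Leaving out 1 library turned other changes that did not pass. For the difference of diet effects these were Cyp1b1 (-1.65 to 0.16) and Arnt (-0.43 to 0.15). Others were Ahr for diet in mesentery (-0.46 to 0.00054), Ahrr between tissues on high fat diet (-0.26 to 1.45) and Ugt1a6a for diet in epididymal fat (-0.31 to 2.80). Tiparp over pool means turned when both libraries of 1 pool number were left out (-0.37 to 0.16). The cause of these changes was not tested. Of 48 member changes, 13 were under 0.5 of their SE (Ahrr 5, Ugt1a6a 5, Arnt 3) and no direction is given for them. Scaling to one total moved the median change of all genes from -0.0023 to 0.13 for diet in mesentery, from 0.10 to -0.04 for diet in epididymal fat, from 0.06 to -0.12 between tissues on high fat diet and from 0.11 to -0.16 for the difference of diet effects; higher against lower calls went from 93 and 29 to 67 and 38 for diet in epididymal fat, from 1627 and 1216 to 1947 and 947 between tissues on chow, and from 1092 and 762 to 703 and 1286 on high fat diet. Same-numbered tissues deviated together in 2 of 3 chow pairs (r 0.53 and 0.58, and 0.03 in pool 50, while an unmatched pair reached 0.52) and by r -0.15 to 0.15 on high fat diet, and same-lettered libraries of the diets had r -0.68 to 0.44, so numbers were not taken to pair samples; with the replicate block, members called were 0 and 1 for diet in mesentery and epididymal fat and 5 and 2 between tissues on chow and high fat diet, where Cyp1a1 (adjusted p 0.0394) and Tiparp (0.0376) were added. Over all genes the replicate block gave 4 and 104 calls for diet in mesentery and epididymal fat. Between tissues it gave 2816 calls on chow and 1890 on high fat diet. Limits: 3 libraries per group, a Cyp1a1 level of 26 and 18 reads per high fat group, and other cells' RNA in the sorted samples.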
